A study of Homo sapiens with 4 samples.

Results

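The 39 forkhead transcription factor genes examined here belong to the FOX family, among 20033 protein-coding genes of the GENCODE 44 annotation of hg38. They were chosen by name. Their peaks were those that overlapped the gene body or the 10 kb on each side of it by at least 1 bp, 210 of the 66044 peaks in 4 CUT&RUN lists. CUT&RUN releases and sequences the chromatin fragments around an antibody-bound protein, here SS18::SSX or WDR5. The cells were HSSY II, an established line of synovial sarcoma (SS) that carries SS18::SSX1, the fusion oncoprotein of this tumor. They received DMSO or 2.5 μM MS67, a proteolysis-targeting chimera (PROTAC) that degrades WDR5, for 4 days. Each target and treatment had 1 library (SS18::SSX with DMSO, SS18::SSX with MS67, WDR5 with DMSO, and WDR5 with MS67), and all had murine NIH-3T3 cells added as a spike-in control. Differences between treatments therefore have no replicates behind them and no p-values. One cell line stands for SS here, and no control library or nonsarcoma line was analysed here.

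Forkhead proteins bind DNA through a winged-helix domain, and many of them set cell identity in the embryo. FOXA proteins open compacted chromatin in the endoderm, the FOXC, FOXF, and FOXL1 proteins pattern mesoderm and mesenchyme, and FOXD3 marks the neural crest. FOXO proteins answer insulin and AKT signaling, and FOXM1 drives mitotic genes. SS18::SSX replaces SS18 in SWI/SNF (BAF) chromatin-remodeling complexes and brings them to developmental genes, many of them in CpG-rich, Polycomb-bound chromatin. WDR5 is a shared subunit of the KMT2/MLL complexes that methylate H3K4. CUT&RUN peaks report binding and give no RNA level.

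The sequences that follow show the DNA under 6 peaks on which the results turn. They are 201 bases of the plus strand of hg38 centered on the summit, with motif letters in capitals on either strand. The motifs are CCAAT (the CCAAT box), GGGCGG (the core of a GC box), CACGTG (an E-box), and TGTTTAC (a core forkhead site). *FOXP2* (chr7:114087855-114088055) and *FOXB2* (chr9:77019024-77019224) are promoter peaks of the genes with the most SS18::SSX peaks. *FOXI2* (chr10:127736860-127737060) and *FOXL2* (chr3:138937285-138937485) are the only SS18::SSX peaks at a forkhead gene that overlapped a peak in both treatments. *FOXE1* (chr9:97852461-97852661) is a wide promoter peak of SS18::SSX that overlapped one of WDR5, and *FOXK2* (chr17:82593399-82593599) is a WDR5 peak found in both treatments, these last being chosen after their values were seen.
FOXP2: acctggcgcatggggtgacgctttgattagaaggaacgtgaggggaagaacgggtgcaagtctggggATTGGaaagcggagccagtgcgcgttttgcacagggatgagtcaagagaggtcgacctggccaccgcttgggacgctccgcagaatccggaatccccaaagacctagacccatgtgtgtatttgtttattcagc
FOXB2: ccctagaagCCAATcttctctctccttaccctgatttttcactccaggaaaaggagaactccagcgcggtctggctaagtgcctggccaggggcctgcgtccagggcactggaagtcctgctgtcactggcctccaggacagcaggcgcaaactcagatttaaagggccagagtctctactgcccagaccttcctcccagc
FOXI2: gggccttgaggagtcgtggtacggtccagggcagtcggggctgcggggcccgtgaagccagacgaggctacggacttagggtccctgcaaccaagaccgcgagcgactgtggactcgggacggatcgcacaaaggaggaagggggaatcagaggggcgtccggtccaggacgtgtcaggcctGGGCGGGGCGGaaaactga
FOXL2: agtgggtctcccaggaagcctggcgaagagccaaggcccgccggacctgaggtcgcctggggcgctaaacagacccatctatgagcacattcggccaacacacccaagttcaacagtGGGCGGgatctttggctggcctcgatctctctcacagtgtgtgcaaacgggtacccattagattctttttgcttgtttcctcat
FOXE1: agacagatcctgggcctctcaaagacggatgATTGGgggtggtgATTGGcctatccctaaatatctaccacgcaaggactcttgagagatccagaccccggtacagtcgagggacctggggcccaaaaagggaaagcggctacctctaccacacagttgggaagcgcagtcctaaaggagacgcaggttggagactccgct
FOXK2: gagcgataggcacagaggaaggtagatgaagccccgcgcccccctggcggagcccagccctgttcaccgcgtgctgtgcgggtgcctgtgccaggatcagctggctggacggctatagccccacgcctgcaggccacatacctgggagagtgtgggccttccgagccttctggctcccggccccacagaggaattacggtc
The *FOXP2* and *FOXB2* windows each hold 1 CCAAT, and the *FOXE1* window holds 2. GGGCGG occurs 2 times in the *FOXI2* window, in overlapping copies, and 1 time in the *FOXL2* window. None of the 4 searched motifs is in the *FOXK2* window, and TGTTTAC is in none of the 6. GC content was highest under *FOXI2* and *FOXK2* (66.7% each) and between 55.7% and 57.7% under the other 4.

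Most forkhead genes had a listed SS18::SSX peak in DMSO-treated cells and few had one with MS67. With DMSO, 27 of 39 (69.2%, 95% CI 52.4 to 83.0) had an SS18::SSX peak in the window, against 31.8% of all protein-coding genes. Many of these peaks were weak. At the study’s thresholds for SS18::SSX (−log10 q above 3 and fold above 3), 23 genes (59.0%, 95% CI 42.1 to 74.4) had one, against 21.2%, and at a −log10 q above 5 only 8 (20.5%, 95% CI 9.3 to 36.5), against 9.81%. With MS67, 3 of 39 (7.69%, 95% CI 1.62 to 20.9) had one, against 3.63%. WDR5 was present at 36 (92.3%, 95% CI 79.1 to 98.4) with DMSO, against 75.0%, and at 20 (51.3%, 95% CI 34.8 to 67.6) with MS67, against 54.1%. Both proteins had a DMSO peak at 25 genes (64.1%, 95% CI 47.2 to 78.8), against 30.3% of all genes. The intervals are exact Clopper-Pearson intervals and account for counting error alone. Because 8 of the genes lie in 3 clusters and a few windows share peaks, the genes are not independent of each other.

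**Figure D1:**
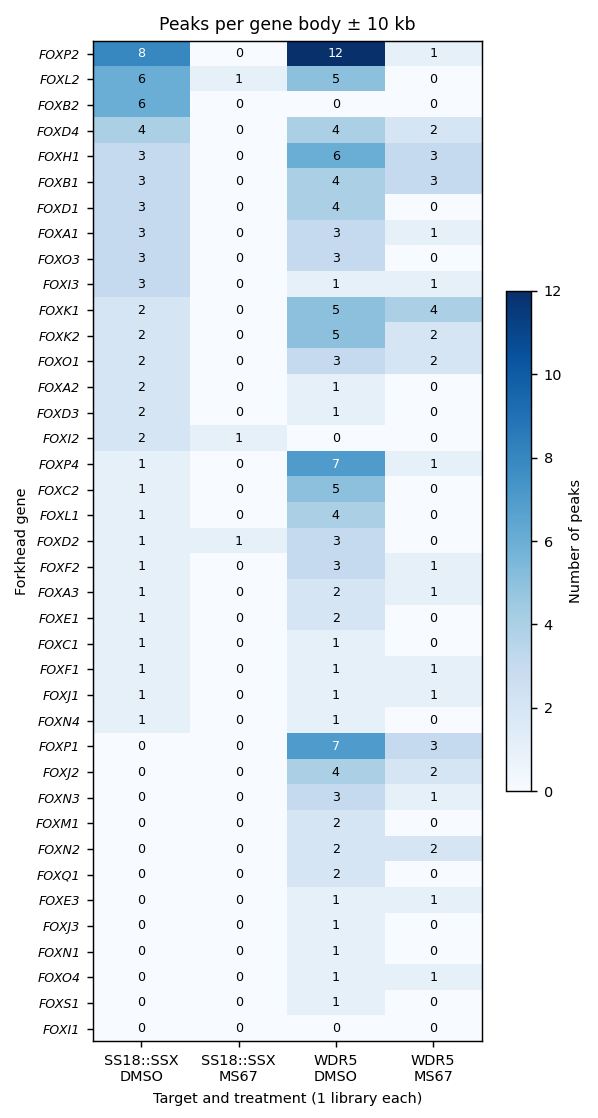
Number of peaks in the gene body and the 10 kb on each side of it for each of the 39 forkhead genes (rows, ordered by SS18::SSX peaks with DMSO) in the 4 libraries (columns). *FOXP2* has the most peaks of both proteins with DMSO (8 and 12), and only *FOXL2*, *FOXI2*, and *FOXD2* have an SS18::SSX peak with MS67.

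The DMSO difference was also present among short genes, whose windows consist mostly of the flanks. Among the 24 with a body under 10 kb, 19 (79.2%) had an SS18::SSX peak with DMSO, against 28.5% of the 5132 protein-coding genes of that length. For WDR5 with DMSO these shares were 87.5% (21 genes) and 61.5%. With MS67, SS18::SSX was at 3 of the 24 (12.5%), against 3.98%, and WDR5 at 10 (41.7%), against 41.5%. The mean number of SS18::SSX peaks per gene was 1.67 at forkhead genes and 0.746 over all protein-coding genes with DMSO, and 0.0769 and 0.0523 with MS67. For WDR5 it was 2.87 and 2.04 with DMSO, and 0.872 and 0.904 with MS67.

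**Figure D2:**
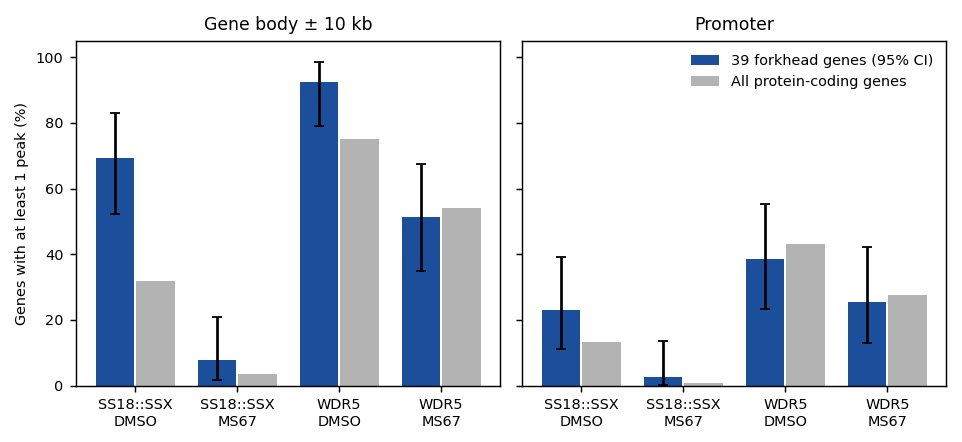
Share of genes with at least 1 peak (vertical axis, %) in the gene body and the 10 kb on each side (left) or at a promoter (right) in the 4 libraries. Blue bars are the 39 forkhead genes with exact 95% intervals for counting error, and grey bars are all 20033 protein-coding genes. The SS18::SSX DMSO pair differs most, at 69.2% and 31.8% in the left panel.

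Promoters held a minority of these peaks. A promoter peak, centered no more than 1000 bp before or 100 bp after a transcription start site, was present for SS18::SSX with DMSO at 9 of 39 genes (23.1%, 95% CI 11.1 to 39.3), against 13.4% of all protein-coding genes. With MS67 only *FOXI2* kept one (2.56%, against 0.724%). WDR5 had a promoter peak at 15 forkhead genes (38.5%, 95% CI 23.4 to 55.4) with DMSO, against 43.0%, and at 10 (25.6%, 95% CI 13.0 to 42.1) with MS67, against 27.7%. Of the 64 SS18::SSX DMSO peaks, 11 were at a promoter, 5 in an exon, 15 in an intron or the exon of another transcript, 17 upstream, and 16 downstream. Their centers lay within 5 kb of a start site of the gene in 39 cases (60.9%), and for 58 peaks the nearest coding start site was that of a forkhead gene. Taking peaks from windows around these genes favors such nearness. Locations were not split over all SS18::SSX peaks, so they cannot be read as particular to forkhead genes.

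The libraries differed in depth, and no spike-in scaling enters the lists. Genome-wide coverage, recovered from the fold and p-value of the peaks, was 0.541 fragments per bp for SS18::SSX with DMSO and 0.737 with MS67. The same step gave the whole number of fragments at each summit. For WDR5 it was 0.368 with DMSO and 0.168 with MS67, so the MS67 library had 0.458 times the coverage of its DMSO library, and the SS18::SSX MS67 library 1.36 times. The lists held 15141 and 1175 peaks for SS18::SSX and 35605 and 14123 for WDR5. A peak missing from a list may be absent binding or binding below the caller’s threshold. Where WDR5 peaks of both treatments overlapped (24 sites), the summit had fewer fragments with MS67 at 22 and as many at 2, whereas divided by the coverage of its library it was higher with MS67 at 15, lower at 8, and equal at 1. The lowest listed summit was 17.8 times the coverage with MS67 and 10.9 times with DMSO, so sites with low scaled values could enter only the DMSO list. Fewer WDR5 fragments with MS67 in the values that follow can therefore not be read as lower binding, and the scaled values are given beside them. Scaling by the coverage of a library also removes any change spread over the whole genome. Equal or higher scaled values with MS67 can therefore not be read as kept or increased binding. With spike-in normalization, the study reported decreased chromatin binding of both WDR5 and SS18::SSX after MS67 in these cells. Among marker genes of SS, *BCL2* had 4 SS18::SSX peaks with DMSO and 1 with MS67, *TWIST1* had 1 and 0, and *TLE1* had none.

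*FOXP2*, whose mutations cause a speech and language disorder, had 8 SS18::SSX peaks with DMSO and 0 with MS67. WDR5 peaks there numbered 12 with DMSO and 1 with MS67. The gene is long (607446 bp), and 98.6% of protein-coding genes had fewer SS18::SSX peaks with DMSO. Its SS18::SSX promoter peak lay 142 bp downstream of one start site and in the promoter of another, with 23 fragments at the summit, a 3.90-fold enrichment, and a −log10 q of 5.02. It overlapped a WDR5 peak of 26 fragments and 3.26-fold. Another 3 SS18::SSX peaks stood together near the 3′ part of the gene, with −log10 q of 3.26, 4.07, and 3.04. The remaining WDR5 peak with MS67 lay within the gene, with 13 fragments with DMSO and 8 with MS67 (35.4 and 47.5 times the coverage).

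*FOXB2* and *FOXL2*, both genes of 1 exon, had 6 SS18::SSX peaks each with DMSO. At *FOXB2*, a relative of the brain gene *FOXB1*, the 6 peaks lay between 5421 bp before and 36 bp after the start site. Their summits held 33 to 45 fragments at folds of 2.22 to 3.0. None had an MS67 peak, and *FOXB2* had no WDR5 peak in either treatment. At *FOXL2*, the ovarian granulosa cell factor, summits held 31 to 42 fragments at folds of 2.23 to 3.41. WDR5 had 5 peaks there with DMSO, including 1 promoter peak of 20 fragments, and 0 with MS67. Folds at both genes were low for their fragment numbers, the fold being taken against a local background that was high there. At each gene most of the SS18::SSX folds were below the study’s threshold of 3.

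*FOXD4*, at the end of the short arm of chromosome 9, had 4 SS18::SSX peaks with DMSO and 0 with MS67. One of them, 4248 bp downstream of the start site, had the highest −log10 q of any SS18::SSX peak at a forkhead gene (15.3), with 38 fragments and a 6.38-fold enrichment. *FOXD4* has near-identical copies elsewhere in the genome, so reads there may align ambiguously. WDR5 had 4 peaks at the gene with DMSO and 2 with MS67, and both MS67 peaks overlapped a DMSO peak. Their summits were 32.6 and 51.7 times the coverage with DMSO and 59.4 and 65.3 times with MS67, higher on this scale. An SS18::SSX MS67 peak lay 12640 bp from the *FOXD4* start site, outside the window.

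**Figure D3:**
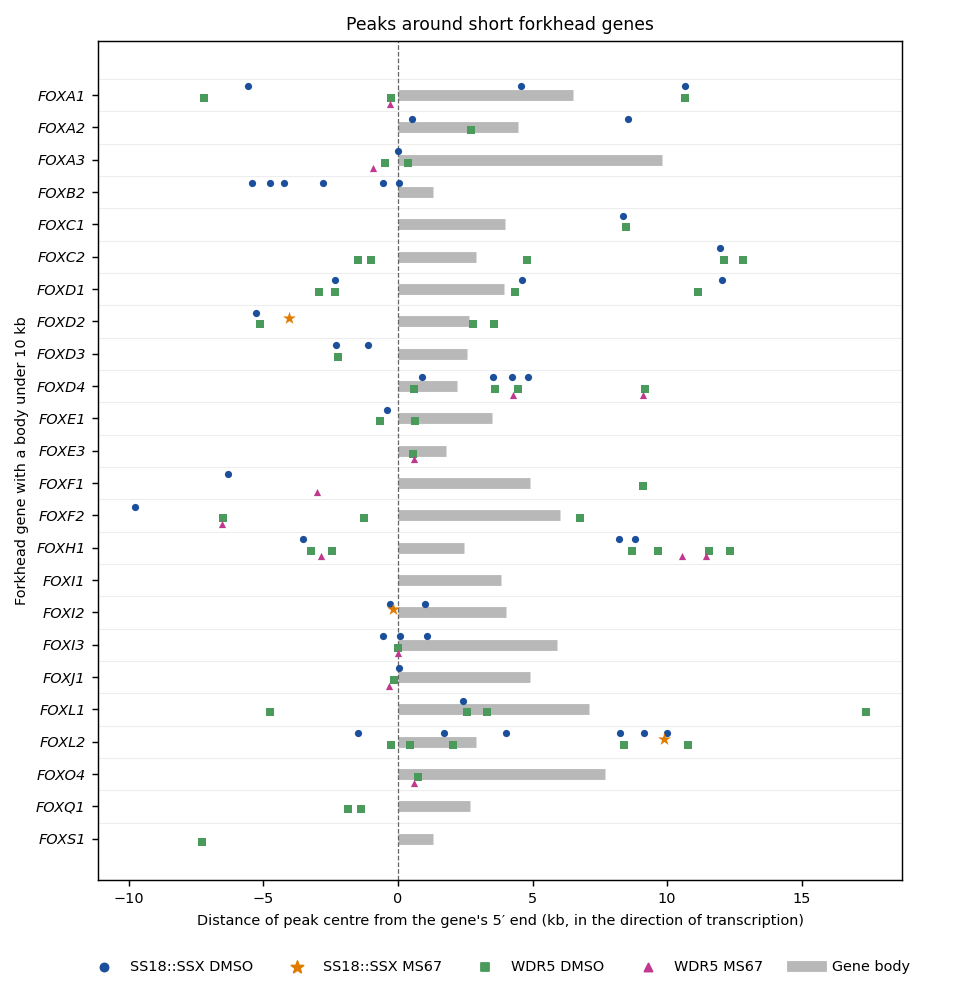
Position of every peak around the 24 forkhead genes with a body under 10 kb. The horizontal axis gives the distance of the peak center from the 5′ end of the gene in kb, grey bars are gene bodies, and symbols mark the 4 libraries. The SS18::SSX DMSO peaks of *FOXB2* lie upstream or at the start of the gene, those of *FOXL2* mostly downstream, and 3 SS18::SSX peaks with MS67 are seen, at *FOXD2*, *FOXI2*, and *FOXL2*.

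SS18::SSX was found with DMSO at the promoters of *FOXA2*, *FOXA3*, *FOXB2*, *FOXE1*, *FOXI2*, *FOXI3*, *FOXJ1*, *FOXN4*, and *FOXP2*. *FOXI3*, a gene of ectodermal and craniofacial development, had 3 SS18::SSX peaks, centered 1088 and 69 bp downstream and 565 bp upstream of the start site, with 24, 20, and 15 fragments and −log10 q of 9.19, 6.21, and 3.24. None remained with MS67. The WDR5 promoter peak of *FOXI3* was found in both treatments, with 20 fragments and a 9.48-fold enrichment with DMSO and 5 fragments and 4.43-fold with MS67 (54.4 and 29.7 times the coverage). *FOXE1*, the thyroid transcription factor, had a single SS18::SSX peak of 1112 bp with 35 fragments, a 3.69-fold enrichment, and a −log10 q of 7.10. Its WDR5 promoter peak had 13 fragments with DMSO, and *FOXE1* had no peak of either protein with MS67. *FOXJ1*, the regulator of motile cilia, had an SS18::SSX promoter peak of 13 fragments (4.91-fold) with DMSO alone. The WDR5 promoter peak of *FOXJ1* had 23 fragments (6.32-fold) with DMSO and 7 (4.98-fold) with MS67 (62.6 and 41.5 times the coverage). Thus the *FOXI3* and *FOXJ1* promoters had peaks of both proteins with DMSO and with MS67 a WDR5 peak, lower over coverage, and no SS18::SSX peak.

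Further promoter peaks of SS18::SSX were seen at *FOXA3*, *FOXN4*, and *FOXA2*. The *FOXA3* peak lay 4 bp from a start site and had 12 fragments at 5.50-fold, and the nearby WDR5 peaks with DMSO had 11 and 10 fragments. With MS67, *FOXA3* had a WDR5 promoter peak of 6 fragments that overlapped neither DMSO peak and lay nearer to the start site of *SYMPK*. *FOXN4*, a retinal gene, had 12 fragments at 4.19-fold and a WDR5 peak in its body with DMSO alone. *FOXA2*, a pioneer factor of the endoderm, had a promoter peak with a −log10 q of 1.39 and a stronger one 7662 bp downstream with 20 fragments and a −log10 q of 5.09. No peak of either protein was found at *FOXN4* or *FOXA2* with MS67. The last of the FOXA genes, *FOXA1*, had 3 SS18::SSX peaks away from its promoter with 11, 14, and 15 fragments with DMSO and 0 with MS67. Its WDR5 promoter peak was present with both treatments, with 21 fragments with DMSO and 14 with MS67. Over coverage it was higher with MS67 (83.1 times, against 57.1).

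Among the FOXD genes, all 4 had SS18::SSX with DMSO. *FOXD1*, a gene of the kidney stroma, had 3 SS18::SSX peaks (9, 12, and 13 fragments) and 4 WDR5 peaks, and none of either with MS67. *FOXD3* had 2 SS18::SSX peaks of 24 fragments each, upstream of the gene, beside a WDR5 peak of 19 fragments, all found with DMSO alone. *FOXB1*, which acts in the developing hypothalamus, had 3 SS18::SSX peaks of 18 fragments each with DMSO and 0 with MS67. WDR5 at *FOXB1* had 4 peaks with DMSO and 3 with MS67, and no MS67 peak overlapped a DMSO peak. The same absence with MS67 held for all SS18::SSX peaks at the FOXC, FOXF, FOXH, FOXJ, FOXK, FOXN, FOXO, and FOXP genes.

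The mesenchymal genes had 1 SS18::SSX peak each in their windows. *FOXC1*, *FOXC2*, *FOXF1*, *FOXF2*, and *FOXL1* each had it with DMSO, with 15 to 22 fragments, and 0 with MS67. *FOXC2* and *FOXL1* share theirs, which was in the exon of *FOXL1* and overlapped a WDR5 peak of 26 fragments. The *FOXC1* peak was 8353 bp downstream of the start site and nearest to the start site of *GMDS*, and *FOXC1* had 1 WDR5 peak, which overlapped it. WDR5 had 5 peaks at *FOXC2* and 4 at *FOXL1* with DMSO, and 0 at either with MS67. Several of these DMSO peaks are shared by both windows and lie nearest to the *FOXL1* start site, so the counts cannot be added. At *FOXF2* a WDR5 peak was seen in both treatments, with 32 fragments with DMSO and 21 with MS67 (87.1 and 125.0 times the coverage). At *FOXF1* the WDR5 peak with DMSO (17 fragments) and that with MS67 (12 fragments) were at different sites.

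Genes of signaling and metabolism were also occupied. *FOXO1* had 2 SS18::SSX peaks of 15 fragments each with DMSO, 1 within the gene and 1 upstream, and none with MS67. Its 3 WDR5 peaks with DMSO had 22, 15, and 16 fragments, and 2 WDR5 peaks, of 9 and 6 fragments, overlapped them with MS67. The stronger of these was 59.9 times the coverage with DMSO and 53.4 times with MS67. *FOXO3* had 3 SS18::SSX peaks within the gene (13, 19, and 16 fragments) and 3 WDR5 peaks with DMSO, and none of either with MS67. The metabolic regulator *FOXK1* had 2 SS18::SSX peaks within the gene, with 14 and 9 fragments, and its close relative *FOXK2* had 2, with 10 and 6, the weaker one downstream and nearest to the start site of *WDR45B*. *FOXK1* had 5 WDR5 peaks with DMSO and 4 with MS67, the most of any forkhead gene with MS67. In each treatment 1 of these was downstream and nearest to the start site of *AP5Z1*. The 3 sites found in both had 38.1, 57.1, and 70.7 times the coverage with DMSO and 47.5, 53.4, and 65.3 with MS67. At *FOXK2* an SS18::SSX peak of 10 fragments, lost with MS67, overlapped a WDR5 peak of 16 fragments that had 16 with MS67 as well, or 43.5 and 95 times the coverage. The −log10 q of that WDR5 peak was 9.91 with DMSO and 12.4 with MS67, the highest of any WDR5 MS67 peak at a forkhead gene. *FOXP4* had 1 SS18::SSX peak of 10 fragments and 7 WDR5 peaks with DMSO, and 0 and 1 with MS67. At *FOXH1*, a SMAD partner in Nodal signaling, 3 SS18::SSX and 6 WDR5 peaks with DMSO lay nearer to the start sites of neighbors, among them *KIFC2* and *PPP1R16A*, and 0 and 3 were seen with MS67. The SS18::SSX summits held 20, 20, and 12 fragments at folds of 3.84, 3.84, and 3.56, with −log10 q of 4.26, 4.25, and 2.24. The WDR5 peak of highest −log10 q there (16.9) had 34 fragments and a 7.66-fold enrichment with DMSO, and the MS67 peak over it had 12 fragments (92.5 and 71.2 times the coverage).

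SS18::SSX peaks were present with MS67 at *FOXD2*, *FOXI2*, and *FOXL2*. At the *FOXI2* promoter, the DMSO peak had 11 fragments, a 4.19-fold enrichment, and a −log10 q of 2.88, and the MS67 peak had 13 fragments, 5.47-fold, and 4.02. A second *FOXI2* peak of 13 fragments, 996 bp downstream, was seen with DMSO alone, and *FOXI2* had no WDR5 peak in either treatment. At *FOXL2* the peak found in both was 9995 bp downstream of the start site, in an exon of the long noncoding RNA gene *LINC01391*, with 35 fragments and 2.83-fold with DMSO and 40 fragments and 2.84-fold with MS67. The other 5 *FOXL2* peaks had no MS67 peak. At *FOXD2* the DMSO peak, of 15 fragments, was 5288 bp upstream, and the MS67 peak, of 14 fragments, was 4038 bp upstream, so they did not overlap, although both lay in *FOXD2-AS1*. Divided by the coverage of their library, the summits were 20.3 with DMSO and 17.6 with MS67 at *FOXI2*, and 64.7 and 54.3 at *FOXL2*. Both sites were thus lower with MS67 on this scale. The *FOXD2* summits, at 27.7 with DMSO and 19.0 with MS67, belong to different sites and give no change at one site. None of the 3 SS18::SSX peaks with MS67 overlapped a WDR5 peak. The share over all SS18::SSX MS67 peaks was not computed, so this cannot be read as particular to forkhead genes.

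**Figure D4:**
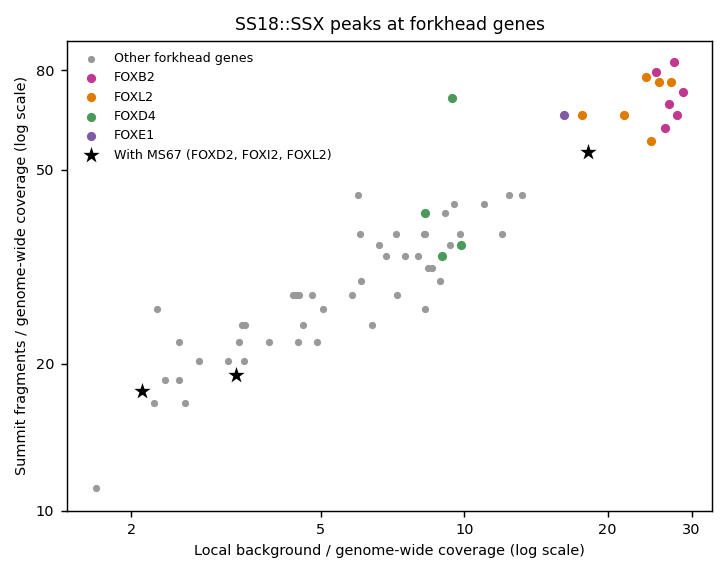
Fragments at the summit (vertical axis) against the local background (horizontal axis) of SS18::SSX peaks at forkhead genes, both divided by the genome-wide coverage of their library and on log scales. Points are DMSO peaks and black stars are the 3 MS67 peaks. The *FOXB2* and *FOXL2* peaks lie at the upper right, at backgrounds of 17.7 to 28.8 times the coverage, and the *FOXD4* peak of highest −log10 q lies above the other peaks of like background.

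Local background varied widely among SS18::SSX sites. It is the density of fragments over the surrounding 10 kb or so if the peaks were called without a control, which is not known here. At *FOXB2* it was 25.3 to 28.8 times the genome-wide coverage, and at *FOXL2* 17.7 to 27.2 times. The single wide peak of *FOXE1* stood on 16.2 times the coverage. All other SS18::SSX DMSO peaks at forkhead genes were between 1.69 and 13.2 times. The median over the 64 peaks was 7.75, and over all SS18::SSX DMSO peaks 5.72. Only 4 of the 64 (6.25%) exceeded the 90th percentile of all SS18::SSX DMSO peaks (26.9), so backgrounds as high as at *FOXB2* were also found elsewhere in the genome. For WDR5 with DMSO the medians were 7.76 at forkhead genes and 4.91 over all peaks, and 17 of the 109 peaks exceeded the 90th percentile of all peaks (13.1). Among these were a peak upstream of *FOXF2*, at 26.2 times the coverage, and a *FOXP2* promoter peak, at 21.5 times. With MS67, the *FOXL2* peak had a background of 18.2 times, *FOXD2* 3.32, and *FOXI2* 2.11, and the median over all SS18::SSX MS67 peaks was 12.2.

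The shares of peaks lost with MS67 at forkhead genes differed from those over all peaks by less than the counting error. Of the 64 SS18::SSX DMSO peaks, 62 (96.9%, 95% CI 89.2 to 99.6) had no overlapping MS67 peak, against 94.2% of all SS18::SSX DMSO peaks. By gene, 24 of 27 (88.9%, 95% CI 70.8 to 97.6) had none left in the window, against 89.2%. Of the 109 WDR5 DMSO peaks, 83 (76.1%, 95% CI 67.0 to 83.8) had none, against 75.0% of all WDR5 DMSO peaks. By gene, 16 of 36 (44.4%, 95% CI 27.9 to 61.9) had no WDR5 peak left, against 30.8%. Of the MS67 peaks, 1 of 3 for SS18::SSX (33.3%, against 26.9%) and 10 of 34 for WDR5 (29.4%, against 35.6%) overlapped no DMSO peak. All 64 SS18::SSX peaks would have passed the lowest p-value of the MS67 list with their fragments and background scaled to its coverage. Of the WDR5 peaks 60 would have passed, and 40 of these 60 (66.7%) were lost, against 67.0% of all such peaks.

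**Figure D5:**
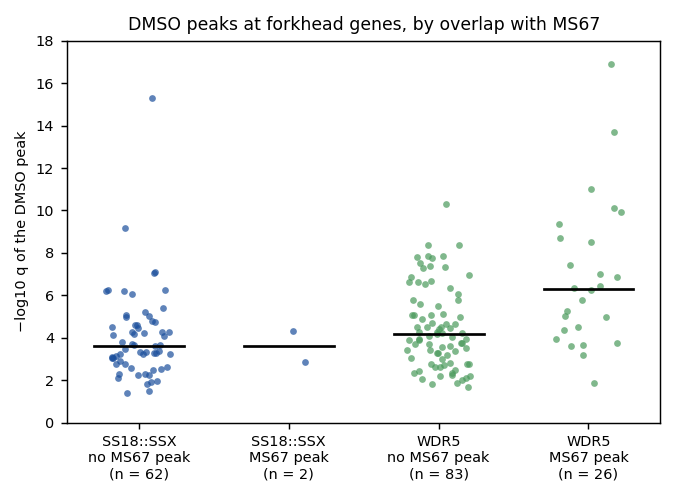
The −log10 q (vertical axis) of each DMSO peak at a forkhead gene, split by target and by overlap with a peak of that protein with MS67. Points are peaks, spread sideways at random, and lines are medians. Kept WDR5 peaks have a median of 6.31 and lost ones 4.16, with wide overlap, and the 2 kept SS18::SSX peaks lie within the range of the lost ones.

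Kept WDR5 peaks had higher medians of strength and width than lost ones, and the ranges overlapped. The median −log10 q was 6.31 for the 26 kept (range 1.88 to 16.9) and 4.16 for the 83 lost (range 1.69 to 10.3). Median width was 493 and 252 bp, and median summit 18 and 16 fragments. The 2 kept SS18::SSX peaks, with −log10 q of 2.88 and 4.33, were not among the strongest. The lost SS18::SSX peaks ran up to 15.3, with a median of 3.63.

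WDR5 promoter peaks with MS67 were at *FOXA1*, *FOXA3*, *FOXI3*, *FOXJ1*, *FOXK2*, *FOXN2*, *FOXN3*, *FOXO1*, *FOXO4*, and *FOXP1*. *FOXN2* kept both of its WDR5 peaks, with 15 and 17 fragments with DMSO and 11 and 10 with MS67 (40.8 and 46.2 times the coverage, then 65.3 and 59.4). *FOXO4*, another target of AKT, had 19 fragments at its promoter with DMSO and 10 with MS67 (51.7 and 59.4 times the coverage). *FOXN3* had 3 WDR5 peaks with DMSO and kept 1, with 15 and then 8 fragments (40.8 and 47.5 times the coverage). *FOXP1* had 7 with DMSO and 3 with MS67, and its MS67 promoter peak of 13 fragments overlapped no DMSO peak. At 2 other *FOXP1* sites the summits were 59.9 and 10.9 times the coverage with DMSO and 47.5 and 23.7 times with MS67. The lens gene *FOXE3* kept its only WDR5 peak, in the exon, with 12 and then 8 fragments (32.6 and 47.5 times the coverage). *FOXJ2* had 4 WDR5 peaks with DMSO and 2 with MS67, both of which overlapped a DMSO peak, at 29.9 and 65.3 times the coverage with DMSO and 35.6 and 65.3 with MS67. Among the 13 genes of 1 exon, 12 had WDR5 with DMSO and 2 (*FOXD4* and *FOXE3*) with MS67, while 24 and 18 of the 26 genes of more exons did. Over all protein-coding genes the WDR5 shares were 37.7% and 20.3% for those of 1 exon and 77.2% and 56.1% for those of more, so genes of 1 exon had WDR5 less often in general with either treatment. SS18::SSX was at 10 of the 13 and at 17 of the 26 with DMSO, against 18.1% and 32.7%.

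With DMSO, 11 genes had WDR5 and no SS18::SSX in the window, namely *FOXE3*, *FOXJ2*, *FOXJ3*, *FOXM1*, *FOXN1*, *FOXN2*, *FOXN3*, *FOXO4*, *FOXP1*, *FOXQ1*, and *FOXS1*. *FOXM1* had 2 WDR5 peaks with 11 and 20 fragments, both nearest to the start site of *TULP3* and both lost with MS67. *FOXJ3* had a promoter peak of 9 fragments, *FOXQ1* had 2 upstream peaks of 18 fragments, *FOXN1*, the thymus gene, had 1 of 6, and *FOXS1* had 1 of 6 near *DUSP15*. All of these were lost with MS67. *FOXI1*, the ionocyte factor, had no peak in any library. In total 16 forkhead genes had no peak of either protein with MS67. The shares of all protein-coding genes for this count and for the 11 genes above were not computed, so neither can be read as particular to forkhead genes.

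SS18::SSX and WDR5 shared sites at 20 of the 39 genes, and the share of all protein-coding genes with such a site was not computed. With DMSO, 27 of the 64 SS18::SSX peaks (42.2%, 95% CI 29.9 to 55.2) overlapped a WDR5 peak, against 33.7% of all SS18::SSX peaks. The order turned at stricter thresholds, with 3 of 39 (7.69%, 95% CI 1.62 to 20.9) against 8.6% at the study’s, and 2 of 13 (15.4%, 95% CI 1.92 to 45.4) against 20.9% at a −log10 q above 5. Seen from WDR5, an SS18::SSX peak lay over 26 of the 109 peaks (23.9%, 95% CI 16.2 to 33.0), against 13.9%. The promoters of *FOXA3*, *FOXE1*, *FOXI3*, *FOXJ1*, and *FOXP2* held a promoter peak of both, a count with no share over all genes to set beside it. *FOXB2* and *FOXI2* were the only ones of the 27 forkhead genes with SS18::SSX with DMSO that had no WDR5 peak. Over all protein-coding genes, 6071 of the 6379 with an SS18::SSX DMSO peak also had WDR5, so such genes were few in general.

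The 3 clusters of forkhead genes were also taken with the ground between their genes. For SS18::SSX this added a peak only on chromosome 6. The cluster of *FOXQ1*, *FOXF2*, and *FOXC1* on chromosome 6 (322.0 kb with its flanks) had 3 SS18::SSX peaks with DMSO, the strongest with 31 fragments and a −log10 q of 8.76 between the windows, and 0 with MS67. WDR5 had 17 peaks there with DMSO and 4 with MS67. The cluster of *FOXF1*, *FOXC2*, and *FOXL1* on chromosome 16 (93.0 kb) had 2 and 0 SS18::SSX peaks and 8 and 1 WDR5 peaks. *FOXE3* and *FOXD2* on chromosome 1 (44.4 kb) had 1 and 1 SS18::SSX peaks and 4 and 1 WDR5 peaks. When each peak was instead assigned to the nearest coding start site, forkhead genes had 99 SS18::SSX peaks with DMSO, 47 of them more than 10 kb away, and 4 with MS67. *FOXF1* then had 10 SS18::SSX DMSO peaks, 9 beyond 10 kb, and *FOXL1* had 9, 8 beyond 10 kb. *FOXQ1* had 3, all of them beyond 10 kb.

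Forkhead promoters were rich in CpG. Over 1100 bp around the start site, the median GC content was 60.0%, against 52.5% over all protein-coding genes, and the median ratio of observed to expected CpG was 0.737, against 0.560. Taking promoters with a CpG ratio above 0.6 and GC content above 50% as CpG-rich, 22 of the 27 forkhead genes with such a promoter had an SS18::SSX peak with DMSO, against 41.2% of all genes with one. Of the other 12, 5 did, against 26.3%. The difference from all genes was therefore also seen among CpG-rich promoters. The highest ratios were at *FOXI3* (1.06) and *FOXK2* (1.05), and the lowest at *FOXS1* (0.196) and *FOXH1* (0.248). The SS18::SSX DMSO peaks themselves, over 201 bases at the summit, had a median CpG ratio of 0.595 at forkhead genes and 0.349 over all peaks, at almost equal GC content (60.4% and 60.2%).

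Motif letters were present at similar shares of forkhead peaks and all peaks. CCAAT was in 21.9% of the 64 SS18::SSX DMSO peaks and in 18.5% of all of them, and GGGCGG in 26.6% and 20.5%. CACGTG was in 4.69% and 4.45%. TGTTTAC was in 1 of the 64 (1.56%, against 1.04%), a peak within *FOXP2*. In promoters, GGGCGG was in 35 of 39 (89.7%, against 64.9%), CCAAT in 30 (76.9%, against 74.1%), CACGTG in 7 (17.9%, against 18.3%), and TGTTTAC in 6 (15.4%, against 11.6%). The genes with TGTTTAC in the promoter were *FOXJ3*, *FOXO1*, *FOXO4*, *FOXP1*, *FOXP2*, and *FOXP4*. Both strands were searched, and a match is a description of letters and not of a bound site.

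Genes that act with FOXO and FOXM1 proteins had SS18::SSX at shares near that of all protein-coding genes (31.8%). Of 15 genes of the FOXO axis, comprising AKT kinases, other regulators, and targets, 5 had an SS18::SSX peak with DMSO and 0 with MS67, and all 15 had WDR5 with DMSO and 10 with MS67, where all genes had 3.63% for SS18::SSX with MS67 and 75.0% and 54.1% for WDR5. *AKT2*, a kinase that inactivates FOXO proteins, had 3 SS18::SSX peaks, 1 at the promoter, with a highest −log10 q of 5.82. *SOD2*, a FOXO target that detoxifies superoxide, had 1 at its promoter, with 2.91. Of 8 targets of FOXM1, 3 had an SS18::SSX peak with DMSO and 0 with MS67, and 6 had WDR5 with DMSO and 7 with MS67. The only one with an SS18::SSX promoter peak was *BIRC5*, which encodes the antiapoptotic protein survivin, with 2 SS18::SSX peaks in its window and a highest −log10 q of 5.39.

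Long noncoding RNA genes lie beside many forkhead genes and share their peaks. Of 45 with a start site within 10 kb of a forkhead gene, 22 had an SS18::SSX peak in their own window with DMSO and 4 with MS67, and 32 and 19 had WDR5. Over all 18866 long noncoding RNA genes the shares were 19.2% and 2.58% for SS18::SSX and 44.4% and 26.1% for WDR5, and those beside forkhead genes share the peaks counted above. An SS18::SSX peak was at the promoter of *RNF157-AS1* beside *FOXJ1*, *LINC01391* beside *FOXL2*, *LINC01385* beside *FOXD1*, *LINC01388* beside *FOXD4*, and ENSG00000289162 beside *FOXB1*. The 4 with an SS18::SSX peak with MS67 were *FOXD2-AS1*, *LINC01391*, *LINC01388*, and ENSG00000227917. For the last named pair, beside *FOXD4*, this was a single peak with a −log10 q of 4.24 outside the *FOXD4* window.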

How the data were processed

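CUT&RUN peaks of SS18::SSX and WDR5 were measured in HSSY II cells after DMSO or MS67, with 1 library per condition. Reads had been aligned by the authors to hg38 (Bowtie2), cleared of duplicates (Picard), and passed to MACS2 one library at a time; options and any control are not given in the sources used here. For each peak the authors deposited a fold enrichment (summit over local background, a ratio). The authors also deposited its −log10 p and −log10 q and a score, which was not used.

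MACS2 computes the fold with a pseudocount of 1 and p from a Poisson tail, so both together gave whole-number summit fragments and background for 100% of the peaks in each list (tolerance 0.001 in −log10 p). The lowest background was taken as genome-wide coverage. This step was tested on simulated data. Each list was used as it stood, by overlap of at least 1 bp, with gene positions of GENCODE 44. Sequences were read from hg38. Shares carry exact Clopper-Pearson 95% intervals. Every forkhead gene in the list is accounted for, genes with an SS18::SSX peak or a WDR5 MS67 promoter peak with their values. The members and lists were chosen with earlier results of these data known. Alternatives changed peak thresholds, windows, promoters, overlap, and depth. Scripts ran in Python 3.11.15 (pandas 2.3.3, numpy 2.4.6, scipy 1.17.1, matplotlib 3.10.9).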

Additional observations from a re-analysis of the deposited data

How the results depend on the processing

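Over 90 comparisons of 15 results with other settings, 45 were classed as moved and 45 as the same, and counts and shares as these cannot reverse. For shares of peaks, the same meant within the exact interval of the main value. Counts were classed by relative size and not by an error. Thus 18 genes with SS18::SSX with DMSO in gene bodies alone, against 27, counted as the same. So did 94 SS18::SSX DMSO peaks with 50 kb on each side, against 64. The order of forkhead against all genes did not hold throughout. The share with a WDR5 DMSO peak was above that of all genes as listed and below it at the study’s thresholds (25.6%, against 30.5%), that with a WDR5 MS67 peak turned above it with 50 kb on each side (71.8%, against 70.6%), and that with an SS18::SSX MS67 peak was 0% at a −log10 q above 5, against 0.819%. For SS18::SSX with DMSO it was above in all 5 settings compared, the lists as deposited included. Stricter thresholds and other windows leave fewer or more peaks by construction. With the study’s thresholds (−log10 q above 3, fold above 3 for SS18::SSX and 6 for WDR5), SS18::SSX peaks in forkhead windows numbered 39 with DMSO and 1 with MS67 (at 1 gene), and WDR5 peaks 13 (at 10 genes, 3 at promoters) and 3 (at 3 genes, 1 at a promoter). SS18::SSX loss was then 100%, WDR5 loss 84.6%, and 7.69% of SS18::SSX peaks overlapped WDR5. With −log10 q above 5, SS18::SSX had 13 peaks at 8 genes (3 promoters) with DMSO and 0 peaks at 0 genes and 0 promoters with MS67, WDR5 had 44 peaks with 6 promoters with DMSO and 5 peaks at 5 genes with 1 promoter with MS67, and the losses were 100% and 93.2% and the overlap 15.4%. In gene bodies alone SS18::SSX had 28 peaks with DMSO (loss 100%) and 1 with MS67 at 1 gene, and WDR5 57 and 20, the latter at 13 genes. With 50 kb on each side, SS18::SSX MS67 peaks were at 5 genes, and WDR5 had 190 and 62 peaks. By nearest start site the peaks were 99 for SS18::SSX with DMSO and 191 and 52 for WDR5. A promoter within 1 kb of a start site gave 15 genes for SS18::SSX with DMSO, and 1 start site per gene gave 5 for WDR5 with MS67. An overlap of 50% gave a WDR5 loss of 90.8%, matching within 1 kb gave 65.1% and an SS18::SSX overlap with WDR5 of 68.8%, and scaling to MS67 depth gave a WDR5 loss of 66.7%.

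The shallow WDR5 MS67 library (0.168 fragments per bp) limits what its missing peaks show. No paired analysis was possible because each condition had 1 library and no result came from a test.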
